A study of Homo sapiens with 10 samples.

Results

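Solute carriers (SLCs) are the large superfamily of membrane proteins that move amino acids, sugars, metals, nucleotides and ions into and out of cells and organelles. Of the 5000 gene names with an m6A peak in any of 7 peak lists from prostate cancer cells, 71 began with SLC, a number and a letter, and these are the genes described here, without SLC2A3. Membership was read from the names of genes with a called peak, so an SLC gene without a peak could not be a member. The name rule used no other measured value, but it was set with earlier results of these data known. Of the 71 names, 66 belong to transporter genes and 5 do not. SLC2A3P1 is a pseudogene, SLC25A21-AS1 an antisense RNA, SLC4A1AP encodes kanadaptin, SLC7A6OS is the gene opposite SLC7A6, and SLC9A3R1 encodes the scaffold protein NHERF1.

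m6A is a methyl group on adenosines inside RNA, laid down mostly by a METTL3-METTL14 complex while a transcript is being made, and read by proteins that affect splicing, translation and decay of the transcript. In MeRIP-seq, RNA fragments that carry it are pulled down with an antibody and sequenced, and regions rich in fragments are called as peaks. In mature mRNA the mark is often found near the stop codon and in the last exon. Cells short of oxygen are known to change their uptake and use of glucose, amino acids and lactate, all of which depend on SLC proteins. Prostate epithelium is known for its high zinc content, which is set by zinc importers of the SLC39 (ZIP) family and zinc exporters of the SLC30 (ZnT) family.

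All 10 samples were from V16A, a cell line of castration-resistant prostate cancer. There were 5 pulled-down libraries and 5 inputs. The pulled-down libraries were 2 of hypoxia, 2 of normoxia and 1 labelled EU with a time of 40 min, read here as newly made RNA tagged with ethynyl uridine. The labels give no oxygen level, duration, treatment or genotype of the cells, nor the oxygen condition of the EU library. Nothing says that replicates were separate cultures, so p-values here cover only the library-to-library spread, and that may be technical. Beside 1 list per library there was 1 further list for each oxygen condition, called the condition list below. How it was made is not stated in the labels or the lists. All peak positions are on hg38.

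List length differed between libraries of the same condition, and this bears on every count below. Peaks numbered 2879 and 6621 in hypoxia replicates 1 and 2, 212 and 1563 in normoxia, and 5044 in the EU library. A list states where a peak was called and holds no read counts, so depth is unknown, and the absence of a peak shows neither lack of the mark nor lack of the transcript. The labelled cell type was checked with 17 prostate and epithelial markers, of which 8 were in at least 1 list. They numbered 1 and 4 in the hypoxia libraries, 0 and 5 in the normoxia libraries and 7 in the EU library. KLK4, FOLH1, STEAP1, STEAP2, ACPP, TRPM8, KRT8, KRT18 and CDH1 were in none of the lists. Of 15 markers of T and NK cells, 9 and 12 were in the hypoxia libraries, 4 and 0 in the normoxia libraries and 12 in the EU library, and their part in the SLC results was not tested. None of the 4 B cell markers was in any list, and of 5 macrophage markers CD68 alone was present, in the hypoxia condition list. Of 5 fibroblast and endothelial markers, COL1A1, COL1A2 and VWF were in none of the lists. VIM was in both hypoxia libraries, normoxia replicate 1, the EU library and the normoxia condition list. PECAM1 was in hypoxia replicate 2 and the hypoxia condition list. In such bulk samples fewer cells of a type, less RNA per cell and a peak that was not called cannot be told apart.

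Sequence could be read for the few SLC peaks that reach into a RefSeq promoter window, from 250 bases before to 50 bases after a gene's start (GRCh38.p14). Among the peaks of 1 block that were read, this held for 9 peaks of 8 genes, 8 of them at the 5′ end of the gene that names the peak. The other is a peak of SLC25A21-AS1, read from the window of SLC25A21 and lying at 36.8% of the span of its own gene. The 5 shown here, at most 30 bases each, belong to peaks described below, and place the amino acid, sodium bicarbonate, mitochondrial and zinc transporters side by side. They are written 5′ to 3′ on the strand of the gene. Capitals mark GGAC, a 4-letter core often found at m6A sites. The search took GGAC first, then AGAC, then GAAC, and last AAAC, each on the gene's strand alone, and no match can overlap one of another core.
SLC25A24, hypoxia replicate 1, chr1:108200329-108200358, minus strand: agcggcgGGACggccacaccctgcgctccg
SLC38A2, hypoxia replicate 2, chr12:46372657-46372686, minus strand: cccttgacacggcGGACgccggaggattgg
SLC7A5, hypoxia replicate 2, chr16:87869458-87869487, minus strand: cggcgcgcacactgctcgctgggccgcggc
SLC4A7, EU library, chr3:27484335-27484364, minus strand: cgccgcggcctcgctctcctactaaagcca
SLC39A6, normoxia replicate 1, chr18:36129291-36129320, minus strand: gcgaaggctaggggcgcggctgccgggtgg
SLC25A24 and SLC38A2 were the 2 genes with GGAC in the readable part of their peak, which was 65 and 100 bases long. GGAC was in 23.3% and 32.6% of stretches of these lengths, taken at the 3′ end of each of the 35116 promoter windows. In 5 genes, SLC7A5, SLC4A7, SLC39A6, SLC20A1 and SLC9B2, the readable part held none of the 4 cores. The readable part was 31 bases in SLC7A5, 36 in SLC4A7 and 95 in SLC39A6, and 69.2% of windows held at least 1 of the 4 cores in 95 bases. The SLC38A2 peak was read from the window of the antisense gene SLC38A2-AS1, which covers it. These matches describe letters only, and the rest of each peak was not read here.

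More SLC genes had a peak in the hypoxia than in the normoxia libraries, as did all genes together, and the share of each list taken by SLC genes was no larger in hypoxia. SLC genes with a peak numbered 18 and 28 in hypoxia replicates 1 and 2, 3 and 17 in normoxia replicates 1 and 2, and 33 in the EU library. The groups did not overlap, but hypoxia replicate 1 and normoxia replicate 2 differed by 1 gene, while the normoxia replicates differed 5.67-fold. On the log2 scale hypoxia had a mean of 4.49 ± 0.45 (SD, n = 2) and normoxia one of 2.84 ± 1.77 (SD, n = 2), a 3.14-fold difference (exact two-sided permutation test over libraries, p = 0.333, the smallest that 2 against 2 libraries allow). Without normoxia replicate 1 the log2 difference fell from 1.65 to 0.40, and without antisense RNAs and pseudogenes it was 1.61, with p = 0.667 by the same exact permutation test.

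As a share of all genes with a peak, SLC genes made up 1.43% and 1.30% in the hypoxia libraries, 2.16% and 1.90% in the normoxia libraries and 1.38% in the EU library. Both normoxia libraries lay above both hypoxia libraries. Hypoxia had a mean share of 1.37% ± 0.0913 (SD, n = 2) and normoxia one of 2.03% ± 0.186 (SD, n = 2), again with p = 0.333 by the exact permutation test, so neither measure could pass a threshold of 0.05. Each library's exact binomial 95% interval, which covers counting error only, overlapped all others; that of normoxia replicate 1, with 3 SLC genes among 139, ran from 0.447% to 6.18%. In the condition lists, 33 of 2637 genes (1.25%) in hypoxia and 29 of 1231 (2.36%) in normoxia were SLC genes. The plot of SLC genes and their share by list sets both measures side by side.

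**Figure D1:**
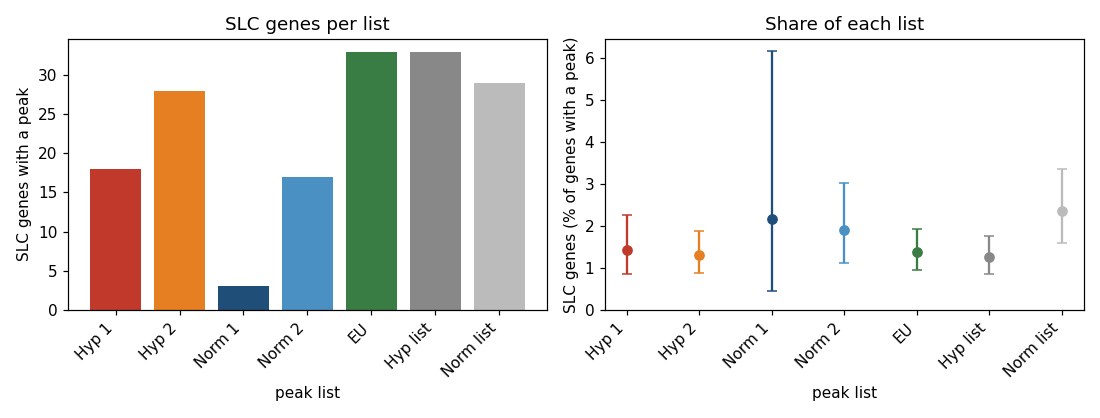
Left, bars give the number of SLC genes with a called m6A peak in each of the 7 lists. Right, points give SLC genes as a percent of all genes with a peak, with exact binomial 95% intervals (counting error only): the count is lowest in normoxia replicate 1 (3 genes), while the percent is higher in both normoxia libraries (2.16 and 1.90) than in both hypoxia libraries (1.43 and 1.30).

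Against the 383 protein-coding SLC genes of RefSeq, 69 (18.0%, exact binomial 95% interval 14.3% to 22.2%) had a peak in any of the 7 lists, beside 22% of all 20056 protein-coding genes. These 69 include MFSD3, MFSD5 and MFSD7, which the lists carry under older names and which are not members by the name rule. Among the substrate families, peaks were called in 9 of 41 amino acid carriers (22%), 5 of 35 sugar carriers (14.3%), 12 of 48 SLC25 genes (25%), 8 of 25 zinc carriers (32.0%) and 10 of 31 SLC35 genes (32.3%). No family was tested against another.

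Next, the lists were used to ask which SLC genes had a peak in 1 oxygen condition alone. Of the 71 genes, 49 had a peak in at least 1 of the 4 hypoxia and normoxia libraries, 9 more in the EU library alone, and 13 in the condition lists alone. A peak in both hypoxia libraries and neither normoxia library was found in 3 of the 49 (6.12%): SLC38A1, SLC39A8 and SLC35E1. Of all 3226 genes with a peak in these libraries, 15.3% had this pattern, which lies inside the exact binomial 95% interval of the SLC share, 1.28% to 16.9%. The reverse pattern was found in 0 of the 49, which allows a share of up to 7.25% by the exact interval, and in 0.155% of all genes. Single genes were not tested, since presence in 2 against 2 libraries cannot pass the threshold.

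By the wider rule of a peak in at least 1 hypoxia library and no normoxia library, 30 SLC genes (61.2%) were on the hypoxia side, against 69.2% of all genes. On the normoxia side were 10 SLC genes (20.4%), against 15.5% of all genes: SLC16A6, SLC25A28, SLC25A30, SLC25A51, SLC30A4, SLC35B4, SLC39A6, SLC39A14, SLC46A1 and SLC9A2. Both conditions had a peak in 9 (18.4%), against 15.4% of all genes: SLC1A5, SLC7A1, SLC12A7, SLC16A1, SLC25A37, SLC33A1, SLC35E2B, SLC45A3 and SLC9A3R1. SLC25A37 alone (2.04%) had a peak in all 4 libraries, as did 0.62% of all genes. These shares lie near those of all genes and set the SLC genes apart in no pattern.

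**Figure D2:**
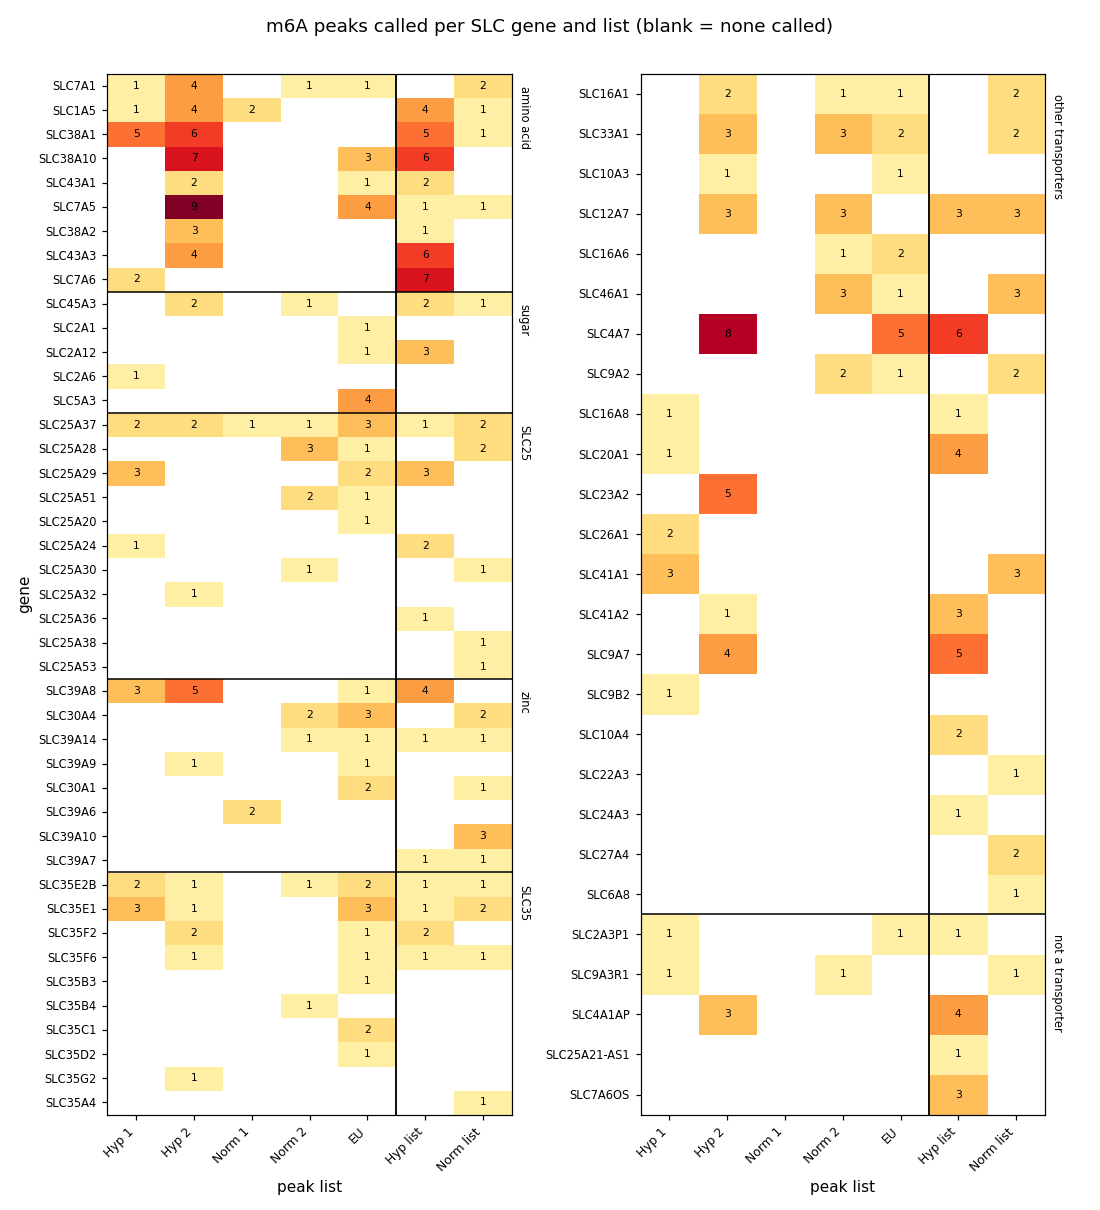
Cells give the number of called m6A peaks of 69 of the 71 SLC genes (rows, grouped by substrate family) in each of the 7 lists (columns; the 2 condition lists stand right of the vertical line), with darker color for more peaks and blanks where none was called. The largest counts are in hypoxia replicate 2, with 9 peaks in SLC7A5 and 8 in SLC4A7, and SLC25A37 is the row filled in every column.

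Of the 5 substrate families, amino acid carriers had the most called genes in each hypoxia library. All 9 had a peak in a hypoxia library, 4 in replicate 1 and 8 in replicate 2, against 1 in each normoxia library and 4 in the EU library. On the hypoxia side were 7 of the 9 (77.8%), against 69.2% of all genes, and none was on the normoxia side. The condition lists counted 8 in hypoxia and 4 in normoxia.

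SLC7A5 encodes LAT1, which exchanges large neutral amino acids such as leucine across the plasma membrane. It had 0 and 9 peaks in the hypoxia libraries, 0 in both normoxia libraries and 4 in the EU library. Its hypoxia replicate 2 peaks ran from chr16:87830323-87830472, near the 3′ end of the gene, to chr16:87869238-87869488 at its 5′ end, the peak whose outermost bases are printed above. The EU library had a peak at both places, chr16:87830972-87831271 and chr16:87869238-87869338. Each condition list had 1 SLC7A5 peak, both near the 3′ end, at chr16:87830822-87831571 in hypoxia and chr16:87831221-87831521 in normoxia. Thus the gene was on the hypoxia side by libraries and on both sides by condition lists. SLC3A2, whose product is the heavy chain that LAT1 needs to reach the membrane, had no peak in any list, nor had SLC7A11, the cystine importer.

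SLC38A1 encodes SNAT1, a sodium-coupled importer of glutamine and other neutral amino acids. It had 5 and 6 peaks in the hypoxia libraries and none in the normoxia or EU library. Near the 3′ end, peaks of both hypoxia libraries met at 1 site, chr12:46187647-46187746 in replicate 1 and chr12:46187647-46187796 in replicate 2, and further upstream they met at the single base 46207617. The others there were at different places, such as chr12:46183312-46183412 in replicate 1 and chr12:46183760-46183910 in replicate 2. The normoxia condition list had 1 SLC38A1 peak of 2 blocks, between 46229173 and 46229568, although neither normoxia replicate had one. SLC38A2, which encodes the related SNAT2, had 3 peaks in hypoxia replicate 2, none in any other library and 1 in the hypoxia condition list, and SLC38A10, of the same family, had 7 in hypoxia replicate 2 and 3 in the EU library.

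SLC1A5 encodes ASCT2, the glutamine exchanger, and was 1 of 2 amino acid carriers with a peak in both conditions. It had 1 and 4 peaks in the hypoxia libraries, 2 and 0 in the normoxia libraries and 0 in the EU library. In normoxia replicate 1 they lay near the 5′ end at chr19:46787749-46787898 and chr19:46787997-46788147, and hypoxia replicate 2 had a peak there, chr19:46787898-46788147. The hypoxia replicate 1 peak lay elsewhere, in 2 blocks between 46782445 and 46784142. The 5′ peaks of hypoxia replicate 2 overlap peaks that it has on the other strand in CTB-147N14.6, and since no label or header states how strand was used, their assignment is uncertain.

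SLC7A1, which encodes the arginine and lysine importer CAT1, was the other. It had 1 and 4 peaks in the hypoxia libraries, 0 and 1 in the normoxia libraries and 1 in the EU library. In normoxia replicate 2 the peak, chr13:29513705-29513955, and in the EU library the peak, chr13:29514055-29514354, each overlapped a hypoxia replicate 2 peak, at chr13:29513705-29513805 and chr13:29513955-29514354. The hypoxia replicate 1 peak lay nearer the 3′ end, at chr13:29510359-29510459. SLC7A1 was the 1 SLC gene with a peak in both hypoxia libraries and none in the hypoxia condition list, which had 45 such genes in all missing from it, and it had 2 peaks in the normoxia condition list.

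The other members had a peak in 1 hypoxia library. SLC43A1, which encodes the branched-chain amino acid carrier LAT3, had 2 in replicate 2 and 1 in the EU library. SLC43A3, grouped here by its number although its product carries purine nucleobases, had 4 in replicate 2, and 2 of these overlap peaks called in RP11-872D17.8 on the same strand. SLC7A6, which encodes y+LAT2, had 2 in replicate 1. In the hypoxia condition list, 3 of its 7 peaks overlap the 3 peaks of SLC7A6OS on the opposite strand, so the 2 genes cannot be told apart there.

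**Figure D3:**
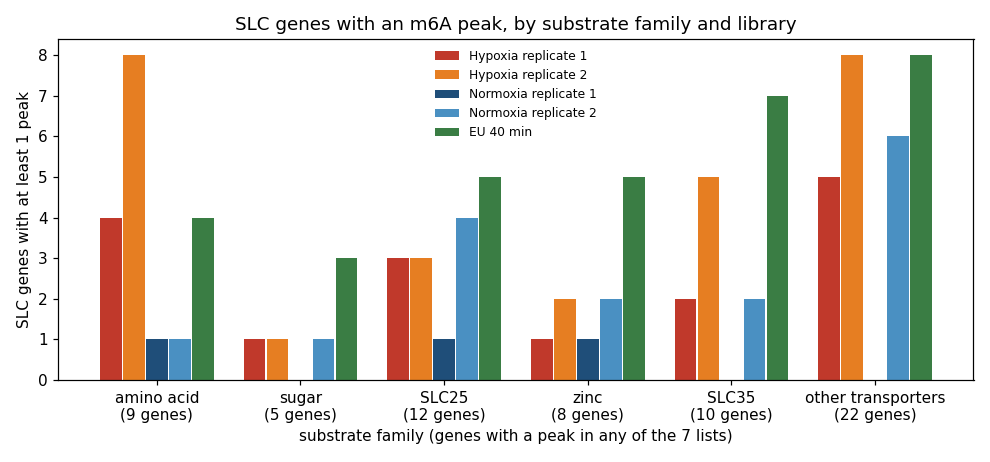
Bars give the number of SLC genes with at least 1 called m6A peak in each of the 5 pulled-down libraries, by substrate family, with the number of genes in any of the 7 lists under each family name. Amino acid carriers reach 8 genes in hypoxia replicate 2 and 1 in each normoxia library, while zinc and SLC35 carriers are most numerous in the EU library (5 and 7 genes). The EU library also had the most called genes of the 5 libraries (2389).

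Sugar carriers had few called genes. A library peak in the EU library alone was found in 3 of the 5, against 25.4% of all genes. SLC2A1 encodes GLUT1, the basal glucose importer and a known hypoxia-induced gene. It had 1 peak, in the EU library at chr1:42926619-42926718, and none in the other 6 lists. SLC2A12, which encodes GLUT12, had 1 peak in the EU library and 3 in the hypoxia condition list, and SLC5A3, which encodes the myo-inositol importer SMIT1, had 4 in the EU library. SLC2A6, which encodes the lysosomal GLUT6, had 1 in hypoxia replicate 1. SLC45A3 encodes prostein, a protein largely restricted to prostate epithelium, with 0 and 2 peaks in the hypoxia libraries, 0 and 1 in the normoxia libraries and 0 in the EU library. Its hypoxia peak at chr1:205662951-205663148 met the normoxia peak at chr1:205663148-205663494 at 1 base. It was also among the prostate markers counted above.

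The mitochondrial SLC25 family was split between the conditions. Its 12 genes had peaks in 3 and 3 genes of the hypoxia libraries, 1 and 4 of the normoxia libraries and 5 of the EU library. Of the 8 with a peak in the 4 libraries, 4 were on the hypoxia side (50%, against 69.2% of all genes), 3 on the normoxia side (37.5%, against 15.5%) and 1 in both. The condition lists counted 4 in hypoxia and 5 in normoxia.

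Both mitoferrins, which bring iron into mitochondria for heme and iron-sulfur clusters, were among them. SLC25A37, which encodes mitoferrin-1, had 2 peaks in each hypoxia library, 1 in each normoxia library and 3 in the EU library. Peaks of both normoxia libraries were centred 3748 bases from the 3′ end of the gene on chromosome 8. Hypoxia replicate 2 and the EU library each had a peak centred 3798 bases from that end. Hypoxia replicate 1 had none there: its peaks were centred 8791 and 46333 bases from the 3′ end, and the first overlapped an EU peak centred at 8716 bases. Presence in all libraries thus did not mean 1 shared site. SLC25A28, which encodes mitoferrin-2, had peaks in no hypoxia library and not in normoxia replicate 1, but 3 in normoxia replicate 2 and also 1 in the EU library. Of its normoxia peaks, 1 lay at chr10:99611009-99611155 and the next began at 99611253. The EU peak, chr10:99611155-99611253, lay between them and met each at 1 base.

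SLC25A51, which encodes the mitochondrial NAD carrier, was called in normoxia replicate 2, with 2 peaks, and the EU library, with 1. SLC25A29, which encodes a carrier of basic amino acids, had 3 peaks in hypoxia replicate 1 and 2 in the EU library. SLC25A24, which encodes an ATP-Mg and phosphate carrier, had 1 peak in hypoxia replicate 1, chr1:108200211-108200358, part of which is printed above. It overlaps a peak of RP11-483I13.5 on the opposite strand. SLC25A30 had 1 peak in normoxia replicate 2, SLC25A32 had 1 in hypoxia replicate 2, and SLC25A20, the carnitine-acylcarnitine carrier, had 1 in the EU library alone. SLC25A36, SLC25A38 and SLC25A53 were in a condition list alone, with 1 peak each. The phosphate carrier SLC25A3 and the ADP/ATP carriers SLC25A5 and SLC25A6 had no peak in any list.

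No zinc carrier had a peak in both conditions by library, a pattern found in 15.4% of all genes. Of the 8 zinc genes, peaks were called for 1 and 2 in the hypoxia libraries, 1 and 2 in the normoxia libraries and 5 in the EU library. Of the 5 genes with a peak in the 4 libraries, 2 (40.0%, against 69.2% of all genes) were on the hypoxia side. The other 3 (60.0%, against 15.5% of all genes) were on the normoxia side. The condition lists counted 3 in hypoxia and 5 in normoxia, with 2 in both.

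SLC39A8 encodes ZIP8, an importer of zinc and manganese. It had 3 and 5 peaks in the hypoxia libraries, none in the normoxia libraries, 1 in the EU library, 4 in the hypoxia condition list and none in the normoxia condition list. Peaks of both hypoxia libraries met at 3 places. Near the 5′ end they were chr4:102344599-102344749 and chr4:102344549-102344699, and further on chr4:102262057-102262156 and chr4:102261907-102262206. The third, spliced over 2 or 3 blocks from 102263153 on, was also called in the EU library. Of the 3 genes with a peak in both hypoxia libraries and neither normoxia library, SLC39A8 was the 1 without a peak in the normoxia condition list. Its smallest deposited p-values were 3.1e-06 in hypoxia replicate 1 and 0.00029 in replicate 2.

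On the normoxia side, SLC39A6, which encodes ZIP6, had 2 peaks in normoxia replicate 1 and none in the other 6 lists, also not in the normoxia condition list. They lay at chr18:36122062-36122162 and, at the 5′ end, chr18:36129286-36129385, the zinc carrier sequence printed above. SLC39A14, which encodes ZIP14, a carrier of zinc, iron and manganese, was called in normoxia replicate 2 and the EU library, with 1 peak each. Both condition lists had a peak at the same place, so its normoxia side was not shared by the condition lists. SLC30A4 encodes ZnT4, which loads zinc into vesicles, and its peaks numbered 2 in normoxia replicate 2, 2 in the normoxia condition list and 3 in the EU library. Its normoxia peak at chr15:45484793-45485192 spanned the EU peak at chr15:45484893-45484992 and overlapped that at chr15:45485092-45485241. Its 5′ peak, chr15:45522071-45522270 in the EU library, overlaps HMGN2P46 on the opposite strand.

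SLC39A9, which encodes ZIP9, had 1 peak in hypoxia replicate 2 and 1 in the EU library. SLC30A1 encodes ZnT1, the zinc exporter of the plasma membrane, and had 2 peaks in the EU library and 1 in the normoxia condition list. SLC39A10, which encodes ZIP10, had 3 peaks in the normoxia condition list and SLC39A7, which encodes the zinc release channel ZIP7, had 1 in each condition list, and neither was in any library.

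The SLC35 family, named for nucleotide sugar carriers of the Golgi and endoplasmic reticulum, was called most often in the EU library. That library also had the most called genes of the 5 libraries (2389) and the most SLC genes (33). The 10 genes of the family had peaks in 2 and 5 genes of the hypoxia libraries, 0 and 2 of the normoxia libraries and 7 of the EU library. Of the 6 with a peak in the 4 libraries, 4 (66.7%, against 69.2% of all genes) were on the hypoxia side, 1 (16.7%, against 15.5%) on the normoxia side and 1 in both. The condition lists counted 4 genes each. Of the 10 genes, 5 belong to subfamilies E, F and G, whose substrates are less well known than those of A to D.

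SLC35E2B had 2 and 1 peaks in the hypoxia libraries, 0 and 1 in the normoxia libraries and 2 in the EU library, and all these lists shared a site. Hypoxia replicate 1 had chr1:1665242-1665542 and chr1:1665642-1665991, replicate 2 had chr1:1665392-1665941, and the EU library had chr1:1665142-1665442. The normoxia replicate 2 peak began at 1665192 and covered 900 bases in 2 blocks, the widest SLC peak of any list. SLC35E2B has a near-identical neighbouring copy, SLC35E2A, between which reads may have been split. SLC35E1 had 3 and 1 peaks in the hypoxia libraries, 0 in both normoxia libraries and 3 in the EU library. In hypoxia replicate 2 the peak, chr19:16553012-16553906, spanned 2 peaks of replicate 1, chr19:16553161-16553260 and chr19:16553608-16553807. The normoxia condition list had 2 SLC35E1 peaks, at other places, and 1 EU peak overlaps CTD-3222D19.2 on the same strand.

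SLC35F2 had 2 peaks in hypoxia replicate 2 and SLC35F6 had 1, and each had 1 in the EU library. SLC35G2 had 1 in hypoxia replicate 2, and it overlaps a peak of NCK1-AS1 on the opposite strand. SLC35B4, a carrier of UDP-xylose and UDP-N-acetylglucosamine, had 1 in normoxia replicate 2. The PAPS carrier SLC35B3, the GDP-fucose carrier SLC35C1 and SLC35D2 were called in the EU library alone, with 1, 2 and 1 peaks. SLC35D2 had the smallest deposited p-value of any SLC peak in that library, 6e-08, which ranked 138th of its 5044 peaks. SLC35A4 had 1 peak in the normoxia condition list alone, and the UDP-galactose carrier SLC35A2 had none.

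Among the 22 transporters of other families, 13 had a peak in a hypoxia library, 6 in a normoxia library and 8 in the EU library. Over all 5000 genes these counts were 2727, 995 and 2389. SLC4A7 encodes NBCn1, a sodium bicarbonate cotransporter that raises the pH of the cell. It had 0 and 8 peaks in the hypoxia libraries, none in the normoxia libraries, 5 in the EU library and 6 in the hypoxia condition list. Hypoxia replicate 2 and the EU library had overlapping peaks at both ends of the gene, at chr3:27374764-27375013 and chr3:27374963-27375062 and, at the 5′ end, at chr3:27484221-27484320 and chr3:27484271-27484370.

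SLC16A1, which encodes the lactate and pyruvate carrier MCT1, had 0 and 2 peaks in the hypoxia libraries, 0 and 1 in the normoxia libraries and 1 in the EU library. SLC16A3, the gene of a hypoxia-induced lactate exporter, had none in any list. SLC33A1, which encodes the acetyl-CoA carrier of the endoplasmic reticulum, had 0 and 3, 0 and 3, and 2 in the same order. Its 5′ peaks met in all 3, as at chr3:155853930-155854030 in hypoxia replicate 2, chr3:155853781-155854030 in normoxia replicate 2 and chr3:155853830-155854130 in the EU library. By condition lists, SLC16A1 and SLC33A1 each had 2 peaks in normoxia and 0 in hypoxia. SLC12A7, which encodes the potassium chloride cotransporter KCC4, had 3 peaks in hypoxia replicate 2 and 3 in normoxia replicate 2.

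Normoxia replicate 2 and the EU library had 1 and 2 peaks in SLC16A6, and 2 and 1 in SLC9A2, which encodes the sodium-proton exchanger NHE2. SLC46A1, which encodes the proton-coupled folate carrier, had 3 and 1, and 2 of its normoxia peaks overlap peaks of SARM1 on the opposite strand. On the hypoxia side, each called in 1 hypoxia library, were SLC16A8, SLC20A1, SLC26A1, SLC41A1 and SLC9B2 in replicate 1, with 1 to 3 peaks, and SLC10A3, SLC23A2, SLC41A2 and SLC9A7 in replicate 2, with 1 to 5. SLC10A3 also had 1 peak in the EU library. By condition lists SLC41A1 was on the other side, with 3 peaks in normoxia and 0 in hypoxia. Of these, chr1:205810269-205810368 overlapped its hypoxia replicate 1 peak at chr1:205810318-205810418. SLC10A4, SLC22A3, SLC24A3, SLC27A4 and SLC6A8 were in a condition list alone. Of the 5 names that are not transporters, SLC2A3P1 was in hypoxia replicate 1 and the EU library, where its hypoxia peak overlaps one of PANK3 on the same strand. SLC9A3R1 was in hypoxia replicate 1 and normoxia replicate 2, SLC4A1AP in hypoxia replicate 2, and SLC25A21-AS1 and SLC7A6OS in the hypoxia condition list alone.

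The EU library was set beside the 4 others to see which SLC genes also had a peak in newly made RNA. Of the 49 SLC genes with a peak in those libraries, 24 (49.0%, exact binomial 95% interval 34.4% to 63.7%) also had one in the EU library, against 39.9% of all genes, which lies inside the interval. A peak in the EU library and none of the 4 was found in 9 of 58 SLC genes (15.5%), against 25.4% of all genes. Of the SLC genes on the normoxia side 7 of 10 had an EU peak (50.7% of all such genes), of those on the hypoxia side 12 of 30 (40.0%, against 29.9%), and of those in both conditions 5 of 9 (55.6%, against 74.0%). By family, 4 of 9 amino acid, 0 of 2 sugar, 4 of 8 SLC25, 4 of 5 zinc and 4 of 6 SLC35 carriers had one. With 1 EU library none of this has a replicate check.

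Whether the same sites were called was asked peak by peak, with an overlap of at least 1 base on the same strand. In hypoxia, 10 of 34 SLC peaks of replicate 1 (29.4%, exact binomial 95% interval 15.1% to 47.5%) overlapped a peak of replicate 2, against 47.6% of the peaks of other genes, just outside that interval. Peaks of 1 gene share its transcripts and are not independent, so the interval is too narrow. Of the 33 normoxia SLC peaks, 10 (30.3%) overlapped a peak of a hypoxia library, against 38.4% for other genes. Of 57 EU peaks, 43.9% (30.7% to 57.6%) overlapped a peak of hypoxia replicate 2, against 29.6%, and 24.6% a peak of normoxia replicate 2, against 15%. For hypoxia replicate 1 the share was 15.8%, against 15.6%, and for normoxia replicate 1 it was 1.75%, against 2.31%.

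By gene, hypoxia replicate 2 and normoxia replicate 2 had 7 SLC genes in common, and all 7 had an overlapping peak, against 88.8% of other genes. Hypoxia replicate 2 and the EU library had one in 14 of 15 (93.3%), with SLC10A3 as the exception, against 90.5%. The 2 hypoxia libraries had an overlapping peak in 5 of 7 SLC genes in common (71.4%), against 91.0% of other genes, the 2 without being SLC25A37 and SLC7A1. Hypoxia replicate 1 and normoxia replicate 2 had one in 1 of 4, SLC35E2B, against 73.5%. Hypoxia replicate 1 and the EU library had one in 6 of 7 (85.7%), against 82.4%. The map of peaks along 6 genes shows both shared and separate sites.

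**Figure D4:**
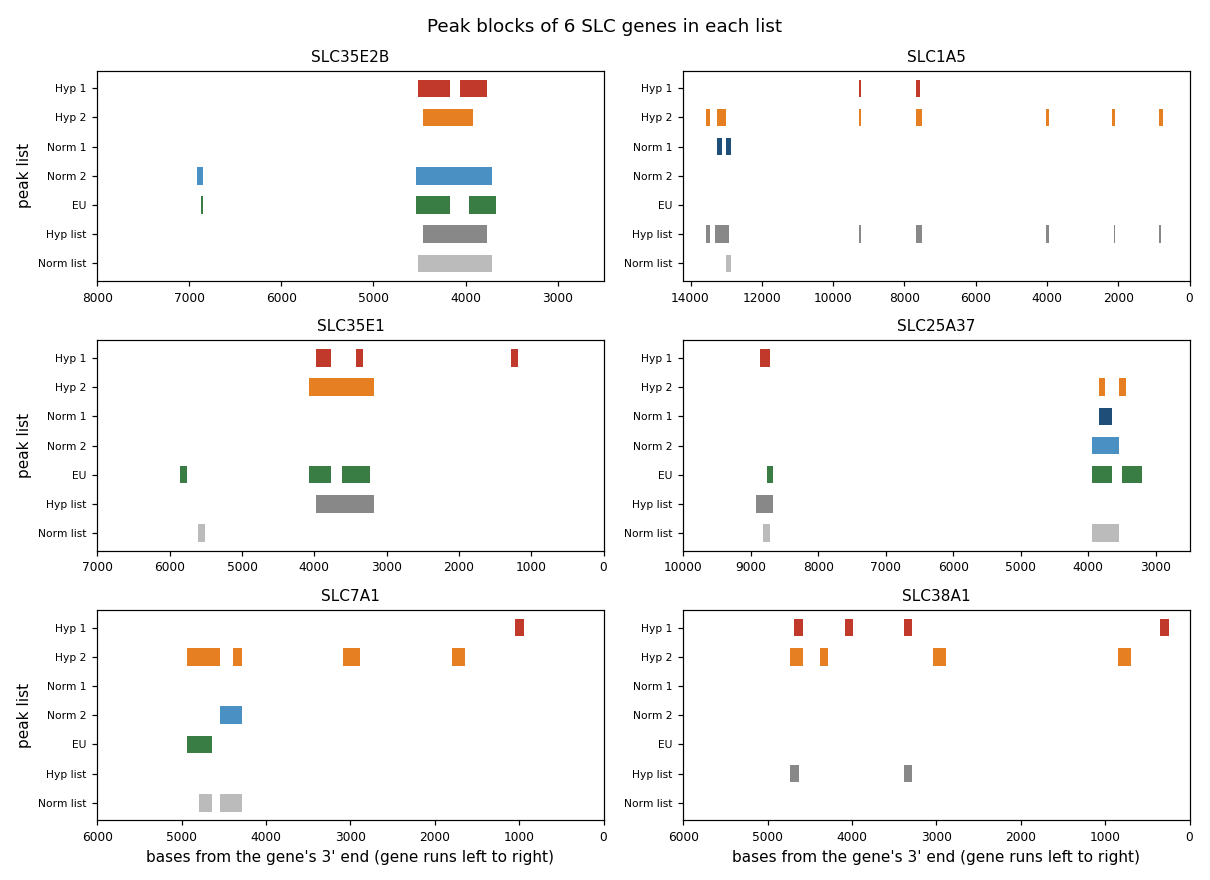
Each panel places the exon blocks of called peaks of 1 SLC gene by distance in bases from the gene's 3′ end, with the gene running left to right and 1 row per list; peaks outside the plotted stretch are not drawn. SLC35E2B has 1 shared site in every list but normoxia replicate 1, while in SLC25A37 and SLC7A1 the hypoxia replicate 1 peak lies apart from those of hypoxia replicate 2.

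Along the gene, SLC peaks were found mostly toward the 3′ end. Over the 5 libraries the median midpoint of 212 SLC peaks lay at 82.5% of the gene span, introns included, against 75.3% for 15382 peaks of other genes. In the last 20% of the span lay 54.2% of SLC peaks and 45% of other peaks, and in the first 20% of it 19.3% and 14.3%. The median of SLC peaks was 72.5% and 87.5% in the hypoxia libraries, 81.9% in the EU library and 80.8% in normoxia replicate 2, and was above that of other genes in each of these 4. In normoxia replicate 1, with 5 SLC peaks, it was 5.62%. Counted in bases to the gene's 3′ end, SLC peaks were nearer than others in hypoxia replicate 2 alone, with medians of 4987 and 5447.5. The medians for SLC and other peaks were 8214 and 5064.5 in hypoxia replicate 1, and 13189 and 2521.5 in normoxia replicate 1. They were 5366 and 3146 in normoxia replicate 2, and 4559 and 3527 in the EU library. Peaks of 1 gene cluster, and 9 of the 88 peaks of hypoxia replicate 2 were of SLC7A5 alone. The share of gene span is not a place in the mRNA, and exon and coding annotation was not used here.

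**Figure D5:**
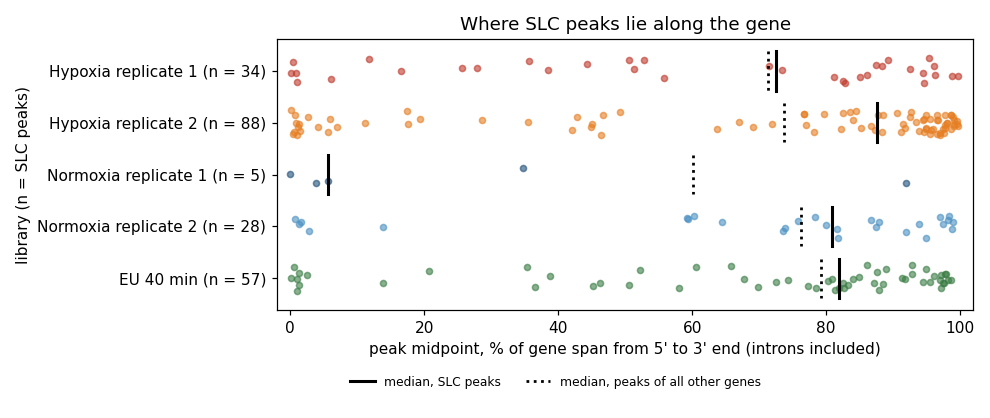
Points place the midpoint of each SLC peak along its gene, as a percent of the span from 5′ to 3′ end with introns included, in each of the 5 pulled-down libraries; vertical spread is only to separate points. Solid bars are medians of SLC peaks and dotted bars medians of peaks of all other genes: hypoxia replicate 2 has the SLC median nearest the 3′ end (87.5%), and normoxia replicate 1, with 5 peaks, the one nearest the 5′ end (5.62%).

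SLC peaks were about as wide as others in some libraries and not in all. The median width, counted over exon blocks, was 151 bases for SLC and for other peaks in hypoxia replicate 2 and 150 for both in normoxia replicate 1. In hypoxia replicate 1 it was 124.5 against 150 bases, in normoxia replicate 2 197.5 against 150, and in the EU library 246 against 199. Peaks with more than 1 block, which span a splice junction, made up 11.8% of SLC peaks against 36.2% of others in hypoxia replicate 1, 27.3% against 36.8% in replicate 2, 0% against 30.4% in normoxia replicate 1, with 5 SLC peaks, 14.3% against 9.84% in normoxia replicate 2 and 17.5% against 19.9% in the EU library. Peaks per gene for SLC and other genes were 1.89 and 2.29 in hypoxia replicate 1, 3.14 and 3.08 in replicate 2, 1.67 and 1.52 in normoxia replicate 1, 1.65 and 1.74 in replicate 2, and 1.73 and 2.12 in the EU library.

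The condition lists and the replicates named different SLC genes in part. Of the 51 SLC genes in the condition lists, 22 (43.1%) were in the hypoxia list alone, against 62.8% of all genes, 18 (35.3%) in the normoxia list alone, against 20.3%, and 11 (21.6%) in both, against 16.9%. Here 62.8% lies above and 20.3% below the exact binomial 95% intervals of the SLC shares, 29.3% to 57.8% and 22.4% to 49.9%. These intervals cover counting error only and rest on 1 list per condition, so they set SLC genes apart in no tested way. By libraries, the shares of all genes, 69.2% and 15.5%, lay inside the SLC intervals, 46.2% to 74.8% and 10.2% to 34.3%. No peak in either replicate of the condition was found for 8 of the 33 SLC genes of the hypoxia list (24.2%, against 26.5% of all genes) and 14 of the 29 of the normoxia list (48.3%, against 42.9%). Among the 14 were SLC38A1, SLC35E1, SLC7A5, SLC30A1 and SLC39A10.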

How the data were processed

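Peaks of MeRIP-seq, called per library for 5 pulled-down samples, and 1 list per oxygen condition were used as deposited. Per the submitters' processing notes, reads were aligned with STAR to hg38. Peak caller, calling threshold, gene annotation and the use of inputs and strand are not given in the sources used here. Lists were deposited by the authors as 12 BED columns without header. Column 5 was read as each peak's p-value, from its ascending values between 0 and 0.013, and these p-values are the authors' and only describe and rank peaks within a list. No read counts were used.

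Starts were counted from 1. Genes were taken by name and matched to RefSeq (GRCh38.p14) by name and position within 10 kb for spans. SLC families were set by SLC number. Members, lists and rules were chosen with earlier results of these data known. Named genes were those called in both libraries of 1 condition alone, up to 4 more per main family and 6 of other families, ranked by number of libraries and smallest deposited p-value, up to 5 in the EU library alone, and some fixed for topic. All other genes named were chosen after their values were seen, to account for the members. Of the 71, 2 enter the counts they belong to and are not reported here by name. Libraries were compared with an exact two-sided permutation test (6 assignments), with intervals by the exact binomial method, in Python 3.11.15 with NumPy 2.4.6, SciPy 1.17.1 and matplotlib 3.10.9. The scripts were tested on simulated data. Alternatives are given in the closing section.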

Additional observations from a re-analysis of the deposited data

How the results depend on the processing

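Over 126 alternatives of 12 results, the differences in SLC genes per library and in their percent kept their sign wherever they gave a value. Which condition had more genes to itself did not: hypoxia-only against normoxia-only was 3 against 0, and without normoxia replicate 1 it was 4 against 9. Without that replicate, normoxia-only asks for a peak in 1 library while hypoxia-only still asks for 2, so these counts follow unlike rules. Over all genes the normoxia-only share then rose from 0.155% to 14.7%, and the hypoxia-only share from 15.3% to 16.8%. Hypoxia-only SLC genes went from 3 to 0 when 50% of each list was kept, by smallest p-value. They also went to 0 with the hypoxia and normoxia libraries, but not the EU library, shortened to 212 peaks each. They went to 22 by the condition lists, and to between 4 and 20 without 1 replicate (20 without hypoxia replicate 1, 13 without hypoxia replicate 2, 5 without normoxia replicate 2). In each of these settings their share stayed below that of all genes. It was 0% against 9.1% with the smallest p-values, 0% against 3.13% with shortened libraries and 43.1% against 62.8% by the condition lists. Without hypoxia replicate 1 it was 51.3% against 63.7%, and without replicate 2, 40.6% against 49.5%. Without normoxia replicate 1 it was 8.33% against 16.8%, and without replicate 2, 12.5% against 22.3%. Normoxia-only genes went from 0 to 18 by the condition lists and to between 0 and 9 without 1 replicate (9 without normoxia replicate 1, 1 without normoxia replicate 2). Their share, below that of all genes at 0% against 0.155%, was above it at 35.3% against 20.3% by the condition lists, 18.8% against 14.7% without normoxia replicate 1 and 2.5% against 1.27% without normoxia replicate 2. The EU share of 49.0%, against 39.9% of all genes, became 22.2% against 20.8% with the smallest p-values. With shortened libraries it was 66.7% (4 of 6 genes) against 56.4%, and there the EU library kept all its peaks. Under these 2 settings the amino acid family fell from 9 genes to 5 and 5, and the sugar family from 5 to 3 and 3 (3 also with peaks at least 151 bases wide). SLC25 fell from 9 to 5 with shortened libraries, and SLC35 from 9 to 2 with the smallest p-values. The share of normoxia SLC peaks met in hypoxia was 30.3%, against 38.4% for other genes. It fell to 0 of 10 peaks (against 21.0%) with the smallest p-values and 0 of 9 (against 11.6%) with shortened libraries. With an overlap of 50% of the peak it was 15.2% against 29.3%. Without 1 replicate it ran from 3.03% against 19.2% (without hypoxia replicate 2) to 60.0%, or 3 of 5 peaks, against 70.0% (without normoxia replicate 2). Apart from the condition lists and the stricter overlap, these settings hold fewer peaks or samples by construction. For the condition lists the cause was not tested.

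With a replicate block the log2 difference in SLC genes stayed 1.65 and the difference in percent −0.660 (exact paired permutation p = 0.5, the smallest for 2 pairs). Replicate differences correlated at −0.105 over 3226 genes, and with the pairing crossed, an alternative chosen after seeing the data, as was leaving out the 5 names that are not transporters, the count of results past the threshold was likewise 0. Leaving out 1 replicate gave log2 differences from 0.40 to 2.90 and percent differences from −0.792 to −0.529. The percent difference was −0.226 with the smallest p-values, −1.39 with wide peaks, −1.40 with shortened libraries and −1.10 by the condition lists. The exact permutation p of the log2 difference was 0.667 with wide peaks, without antisense RNAs and pseudogenes, and with transporter genes alone, and 0.333 with the smallest p-values. That of the percent difference was 0.667 with the smallest p-values. Shortened libraries gave no value for the log2 difference, since a library then had 0 SLC genes. The condition lists gave 0.19, with no test. Depth is unknown, so whether an uncalled gene lacked reads was not tested.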
